A study of Mus musculus with 106 samples.

Results

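SLC25 genes code for the carriers of the mitochondrial inner membrane, and their RNA was followed across 11 mouse tissues after housing in the cold or the warmth. The members were all rows whose symbol is Slc25a followed by a number in the 4 deposited count tables, without Slc25a20 and Slc25a44. That rule kept 45 of 47 such rows in each table, beside the 21647 to 23420 genes that a table holds and the 20198 genes found in all 4. The rule used symbols only, but members were chosen with earlier results of these data known. Ucp1, Ucp2 and Ucp3 belong to the same protein family under other symbols and were not members.

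The animals were male C57BL/6J mice of 8 weeks at the start (some labels give 11 or 12 weeks), and the labels name no mutation, transgene or drug in any group. Cold mice passed through 18 °C and then 14 °C, for 5 days each, before 2 weeks at 10 °C, warm mice spent 4 weeks at 34 °C, and each experiment had its own mice at 22 °C (room temperature). At 10 °C the tissues were interscapular brown fat (iBAT), inguinal subcutaneous fat (ingSAT), perigonadal visceral fat (pgVAT), quadriceps, ileum, liver, spleen, bone marrow, spinal cord, brain and hypothalamus, with 3 libraries per temperature, except 6 in bone marrow, 5 in spinal cord and 2 at 22 °C in brain, where 1 library was left out. At 34 °C they were iBAT, quadriceps, ileum, liver and brain, with 3 libraries per temperature. Most libraries pooled 2 mice, while those of bone marrow and spinal cord were from single animals. For iBAT of the warm experiment the study's methods give pools of 2 mice and its sampling summary gives mostly single animals. Cold and warm mice came from different suppliers and many libraries differed in kit and sequencer, so that a difference between the cold effect and the warm effect cannot be told apart from a difference between the experiments. Total counts ran from 4262403 to 58290770 (median 17676815, n = 75) in the cold experiment and from 29545458 to 62880248 (median 41889787, n = 30) in the warm one.

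The labelled tissues carried their own marker genes, with a summed level of at least 84908 CPM (counts relative to the size of the library) for hepatocyte genes in liver and at least 137030 CPM for muscle genes in quadriceps. Some libraries also held RNA of another tissue. Epididymis markers summed to 19237, 3.16 and 22597 CPM in the pgVAT libraries at 10 °C and to 2579, 882 and 669 CPM at 22 °C. They also summed to 3.16, 3.06 and 36.8 CPM in iBAT at 10 °C, beside 0 in all 3 controls, and to 159.9, 0.0659 and 0 CPM in quadriceps at 10 °C, beside 0.0951, 0 and 0 CPM, and their part in the iBAT and quadriceps results was not tested. Acinar markers of the pancreas reached 1775 CPM in 1 quadriceps library at 22 °C. In bulk tissue, fewer cells of a type and less RNA per cell cannot be told apart.

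Carriers of this family move metabolites across the inner membrane, which is otherwise closed to charged molecules. They include the ADP/ATP exchangers and the phosphate carrier that serve oxidative phosphorylation, the citrate, dicarboxylate and oxoglutarate carriers that link the citric acid cycle to the cytosol, amino acid carriers of the malate-aspartate shuttle and the urea cycle, and carriers for cofactors such as coenzyme A, folate and NAD. In brown fat they support respiration, fatty acid synthesis and the supply of cofactors to a tissue packed with mitochondria.

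The 45 members were detected at very different levels at 22 °C. Levels between genes are given as CPM per kilobase of merged exon (CPM per kb), and are compared only within a table. In the largest table, which holds 8 tissues of the cold experiment, 15 members had their highest mean level in iBAT, and for 10 of these the iBAT libraries lay above all libraries of the next tissue. Liver was highest for 11 members (9 with ranges apart), ileum for 5 (4), spleen for 4 (2), brain, hypothalamus and pgVAT for 3 each (1, 2 and 0), and ingSAT for 1 (0). The counts include members of very low level, such as Slc25a31 at 0.225 CPM per kb in iBAT. They were not made over all genes, so that they do not tell whether members differ from other genes in this.

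Slc25a4, the ADP/ATP carrier of muscle and heart, led in quadriceps with 2198 ± 149 CPM per kb (SD, n = 3), which was 77.6% of the summed level of all members there. It also led in brain (331 ± 2.13, n = 2), hypothalamus (211 ± 9.67), spinal cord (343 ± 14.1, n = 5) and iBAT (379 ± 23.5). Slc25a1, the citrate carrier, followed in iBAT with 363 ± 122 CPM per kb, overlapping Slc25a4, and led in ingSAT (307 ± 152) and pgVAT (119 ± 16.7).

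Tissue-restricted members stood out in liver, ileum and the blood-forming tissues. Slc25a47, a carrier known for its liver expression, reached 250 ± 35.6 CPM per kb in liver, 94.3-fold above iBAT. Slc25a13, the aspartate/glutamate carrier citrin of the urea cycle, was 13.2-fold higher in liver than in ileum, the next tissue. Slc25a24, a calcium-dependent carrier of ATP-Mg and phosphate, was 15.97-fold higher in ileum (128 ± 3.65 CPM per kb) than in spleen. Slc25a5, the ADP/ATP carrier of dividing cells, led in ileum with 196 ± 10.7 but was not restricted to it, at 1.42-fold above liver. Slc25a37, the iron importer mitoferrin 1 of red cell precursors, led in bone marrow with 334 ± 27.3 CPM per kb (SD, n = 6), 35.4% of the summed member level, and in spleen with 88.2 ± 20.6. The level of Slc25a5 differed between tables (716 ± 49.0 CPM per kb in ileum of the warm experiment). Whether reads of close copies of this gene were counted differently was not tested.

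**Figure D1:**
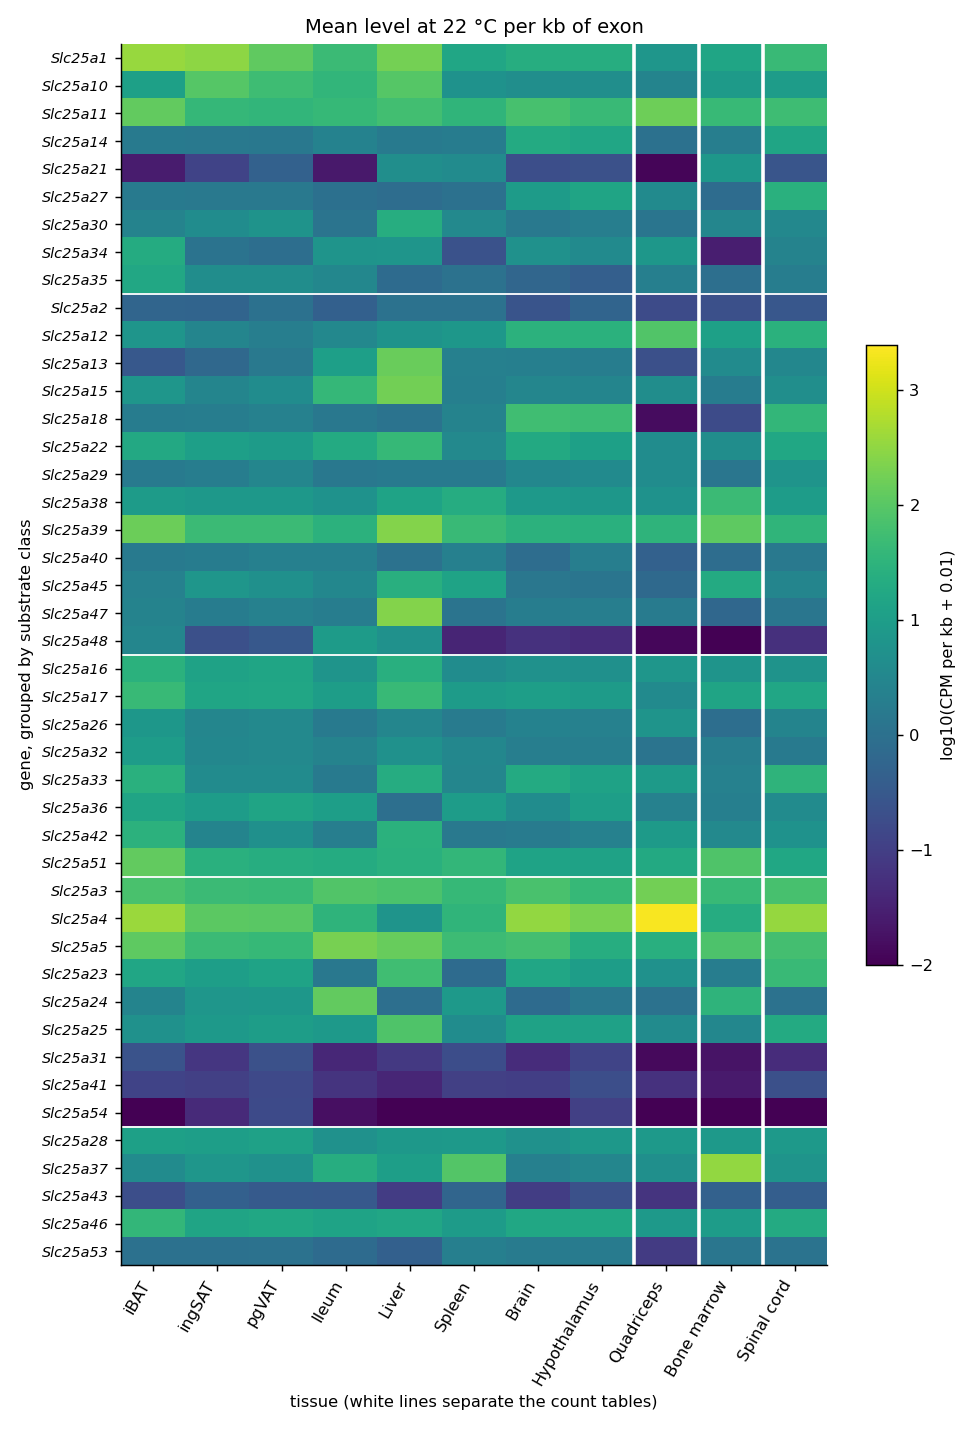
Level of 44 members (rows) in each tissue (columns) at 22 °C, as mean CPM per kilobase of merged exon on a log colour scale, with white lines between count tables and between substrate classes. Slc25a4 in quadriceps stands at 2198, 77.6% of the summed level of all members there, and Slc25a47 in liver stands 94.3-fold above the next tissue.

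A gene was called changed where its p before adjustment did not exceed 0.05 and its fold exceeded 1.5 in edgeR's quasi-likelihood F-test, among genes with an average log2 CPM above 0, and the Benjamini-Hochberg adjusted p over all genes tested is given beside it. Of the 45 members, 42 were tested in at least 1 of the 16 comparisons and 31 in all of them. Slc25a31, the ADP/ATP carrier of testis, and Slc25a41 and Slc25a54 were never tested, because they stayed under the limit. There were 27 members called at least once, 20 of them at 10 °C and 16 at 34 °C, and 15 were tested and never called. These counts over comparisons were not made for all genes. Of the 36 calls at 10 °C and 18 at 34 °C, 39 were in fat. Calls over all genes were also most frequent there, at 7.94% to 19.4% of genes tested in the fat comparisons, beside 0.193% to 3.83% in the others.

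In ingSAT at 10 °C, 14 of 41 members tested were called, 12 higher and 2 lower, where 16.3% of all genes tested were called (7.2% higher and 9.14% lower). Of these, 10 also had an adjusted p under 0.05, beside 6.62% of all genes. Without Slc25a21 and Slc25a48, whose libraries at 22 °C all lay under 1 CPM there, 13 of 39 were called, 11 higher and 2 lower, 9 of them with an adjusted p under 0.05. The median log2 fold change was 0.26 over the members and -0.01 over all genes. In iBAT at 10 °C, 9 of 38 were called, 6 higher and 3 lower, beside 13.2% of all genes (6% higher and 7.24% lower), and 7 held an adjusted p under 0.05, beside 8.73%. At 34 °C the direction in iBAT was mostly the other one, with 9 members lower and 3 higher of 37, beside 19.4% of all genes called (7.19% lower and 12.2% higher). An adjusted p under 0.05 was held by 10 of the 12, beside 15.6% of all genes, with a median of -0.21 over the members and 0.02 over all genes. Library-size scaling without TMM factors moved the median of all genes by -0.16 in iBAT at 10 °C, by 0.23 in quadriceps at 10 °C and by 0.27 in iBAT at 34 °C, and fold changes here are relative to the TMM centre.

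Fewer members were called elsewhere, and few of those calls held after adjustment. The counts were 4 of 41 in pgVAT (2 higher and 2 lower, beside 4.46% of all genes higher and 3.47% lower, 7.94% in all) and 3 of 35 in quadriceps (all higher, beside 3.09% higher and 0.743% lower, 3.83% in all). They were 2 of 39 in ileum (both lower, beside 1.44% higher and 1.26% lower, 2.71% in all) and 4 of 40 in liver (all lower, beside 0.74% higher and 2.54% lower, 3.28% in all). At 34 °C they were 3 of 35 in quadriceps (all lower, beside 0.289% higher and 0.919% lower, 1.21% in all), 1 of 38 in ileum (higher, beside 1.57% higher and 1.26% lower, 2.83% in all) and 2 of 35 in liver (1 in each direction, beside 1.77% higher and 1.61% lower, 3.38% in all). Among these calls only that of Slc25a45 in liver at 34 °C had an adjusted p under 0.05, as had 0.385% of all genes there.

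**Figure D2:**
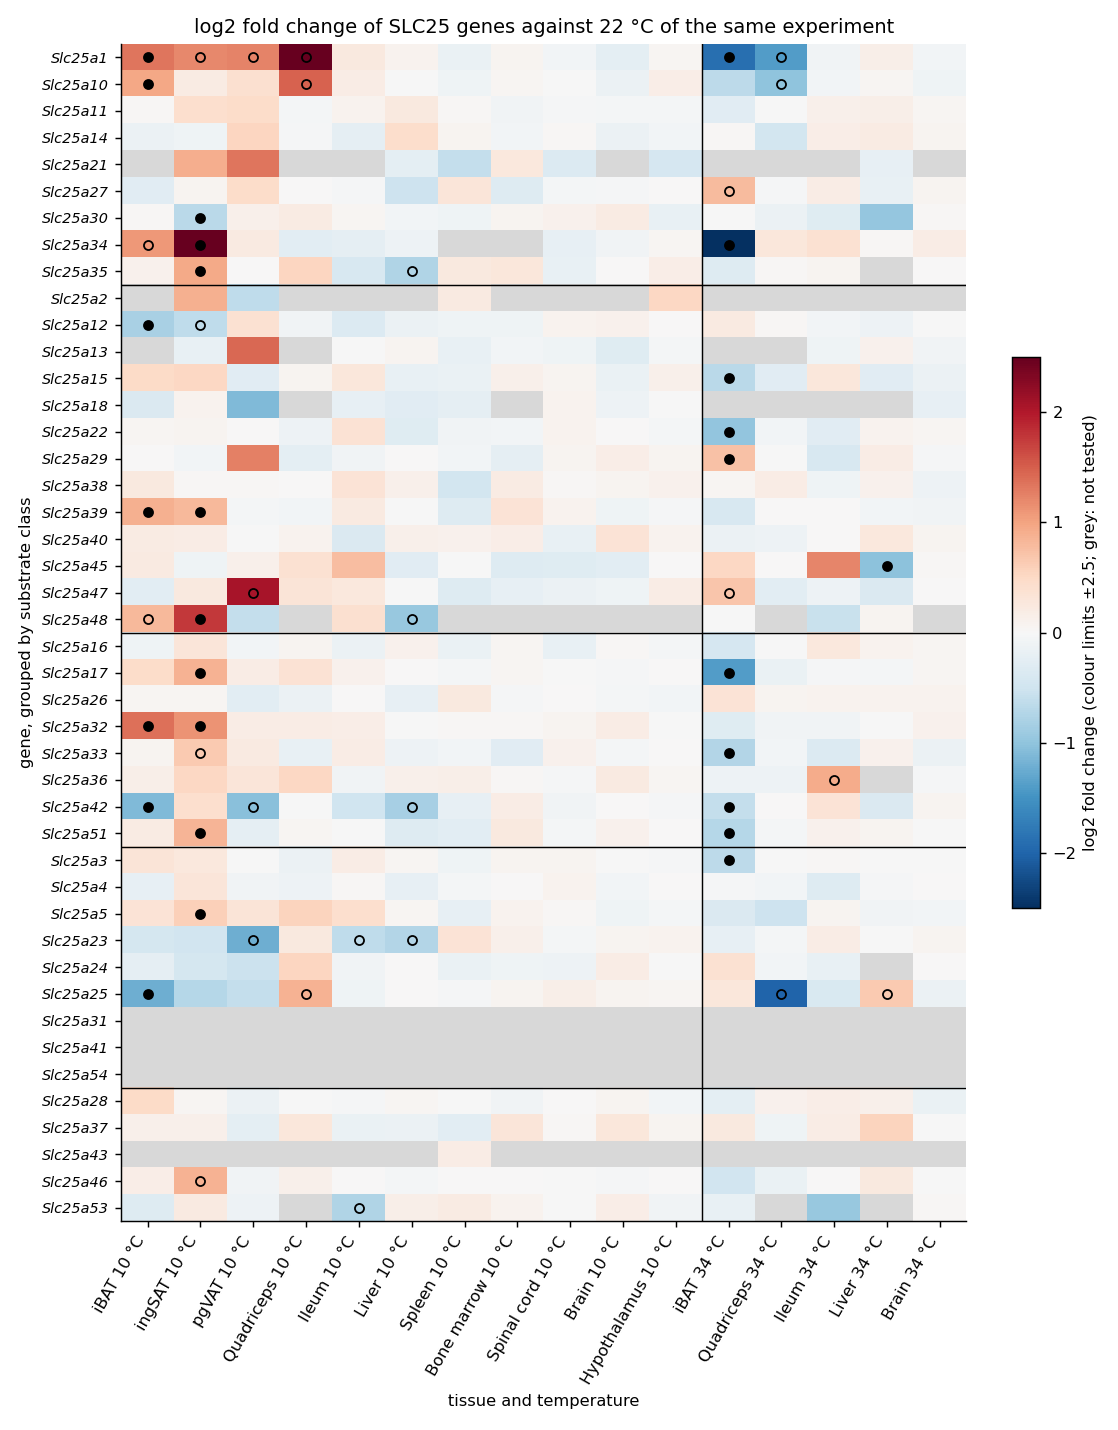
The log2 fold change of 44 members (rows) in each of the 16 comparisons (columns), red for higher and blue for lower than 22 °C, with grey for not tested. A filled dot marks a call with an adjusted p under 0.05 and an open dot a call without it. Filled dots lie in ingSAT and iBAT, and 1 in liver at 34 °C.

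Slc25a1 (ENSMUSG00000003528, chr16:17925223-17928219, minus strand, GRCm38) exports citrate for fatty acid synthesis in the cytosol, and was called in more comparisons than any other member. It was higher in iBAT, ingSAT, pgVAT and quadriceps at 10 °C and lower in iBAT and quadriceps at 34 °C. In iBAT it stood at 686, 789 and 380 CPM at 22 °C and at 1697, 1453 and 1512 CPM at 10 °C, a log2 fold change of 1.33 (SE 0.252, adjusted p = 0.012). All 3 cold libraries lay above all 3 controls, as for 16.4% of all genes tested there. The 6 brown adipocyte markers summed to 8384, 7311 and 12328 CPM in these controls and to 13174, 16987 and 14579 CPM in the cold libraries, with 3 called higher and 2 lower, and their part was not tested. In iBAT of the warm experiment Slc25a1 stood at 913, 1207 and 782 CPM at 22 °C and at 175, 393 and 223 CPM at 34 °C, a log2 fold change of -1.88 (SE 0.313, adjusted p = 0.00653). Again the groups did not overlap, and 24.6% of all genes tested there lay apart in this direction.

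The same gene had wider spread in the other fat depots. In ingSAT its libraries held 1102, 706 and 372 CPM at 22 °C and 2070, 1528 and 1411 CPM at 10 °C, a log2 fold change of 1.20 (SE 0.389, adjusted p = 0.104). In pgVAT they held 308, 298 and 237 CPM and then 438, 985 and 561 CPM, a log2 fold change of 1.23 (SE 0.397, adjusted p = 0.593). The cold libraries lay above the controls in both depots, as for 16.4% of all genes tested in ingSAT and 5.01% in pgVAT. The ingSAT call was lost without 10 °C replicate 1 (1.02) or 22 °C replicate 2 (1.18), and the pgVAT call without 22 °C replicate 2 (1.27) or 22 °C replicate 3 (1.13). Without the 2 pgVAT libraries at 10 °C that were rich in epididymis markers, which leaves 1 library at 10 °C that is assumed to vary like the others, Slc25a1 was still called, at 1.83. The cold effects on Slc25a1 differed by 0.15 (SE 0.518) between iBAT and ingSAT and by 0.12 (SE 0.518) between iBAT and pgVAT, less than their standard errors.

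In quadriceps, Slc25a1 had 17.8, 12.6 and 5.65 CPM at 22 °C and 88.0, 79.8 and 34.26 CPM at 10 °C, a log2 fold change of 2.49 (SE 0.478, adjusted p = 0.187). Its 34 °C libraries held 9.33, 4.48 and 13.5 CPM beside 31.8, 26.7 and 13.7 CPM at 22 °C, a log2 fold change of -1.40 (SE 0.406, adjusted p = 1). Slc25a10, the dicarboxylate carrier that exchanges malate for phosphate, went along with it in this muscle. It had 9.70, 8.81 and 4.13 CPM at 22 °C and 24.1, 26.3 and 12.2 CPM at 10 °C, a log2 fold change of 1.47 (SE 0.376, adjusted p = 0.331), and 13.8, 12.6 and 7.81 CPM beside 4.12, 3.74 and 9.21 CPM in the warm experiment, where the groups overlapped (log2 fold change -1.01, SE 0.357, adjusted p = 1). This last call was lost without any of 4 of the 6 libraries, at -0.93 to -0.78 (22 °C replicates 1 and 2, 34 °C replicates 1 and 2). With all 22 °C libraries of the tissue as controls, the 34 °C calls of Slc25a1 (-0.996) and Slc25a10 (-0.75) were both lost.

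Adipocyte markers moved with both genes in quadriceps. The 6 markers summed to 221, 308 and 195 CPM at 22 °C and 733, 817 and 285 CPM at 10 °C, with 5 of 6 called higher, and to 573, 364 and 254 CPM at 22 °C and 268, 145 and 341 CPM at 34 °C, with 1 called lower. The library with the lowest sum at 10 °C was also the one lowest for Slc25a1. Ucp1, the uncoupling protein of brown fat, went from 0.0476, 0.0577 and 0.394 CPM to 120.2, 95.03 and 27.5 CPM in the cold muscle libraries. The part of fat in these muscle results was not tested.

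The promoter of Slc25a1 is shown because its gene was called in more comparisons than any other member, and in both experiments. It is the RefSeq window from 250 bases before to 50 bases after the gene's start (GRCm38.p6, chr16:17928170-17928469, minus strand, 5′ to 3′), and the capitals mark an E-box, CACGTG, 239 bases before the start.
Slc25a1: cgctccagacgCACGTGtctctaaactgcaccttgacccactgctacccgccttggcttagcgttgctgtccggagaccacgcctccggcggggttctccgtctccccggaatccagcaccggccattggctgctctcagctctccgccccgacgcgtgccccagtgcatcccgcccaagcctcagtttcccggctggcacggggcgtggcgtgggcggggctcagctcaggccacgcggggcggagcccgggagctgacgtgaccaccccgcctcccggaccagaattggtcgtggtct
Searched on both strands, CACGTG was found in 7.15% of 32851 RefSeq promoters and in 8 of the 45 promoters of members. These 8 belong to 7 of the 35 members with a promoter in the table, since a gene can have more than 1. The sterol regulatory element TCACCCCAC was found in 0.551% of all promoters and in none of the members, and the NRF1 site in 4.6% of all and in 2 of the 45 member promoters (Slc25a3 and Slc25a31). A CCAAT box was found in 37.4% of all promoters and in 22 of the 45 member promoters, which belong to 19 of the 35 members, Slc25a1 among them. None of the motifs searched contains another, and a match is a description of the sequence only.

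**Figure D3:**
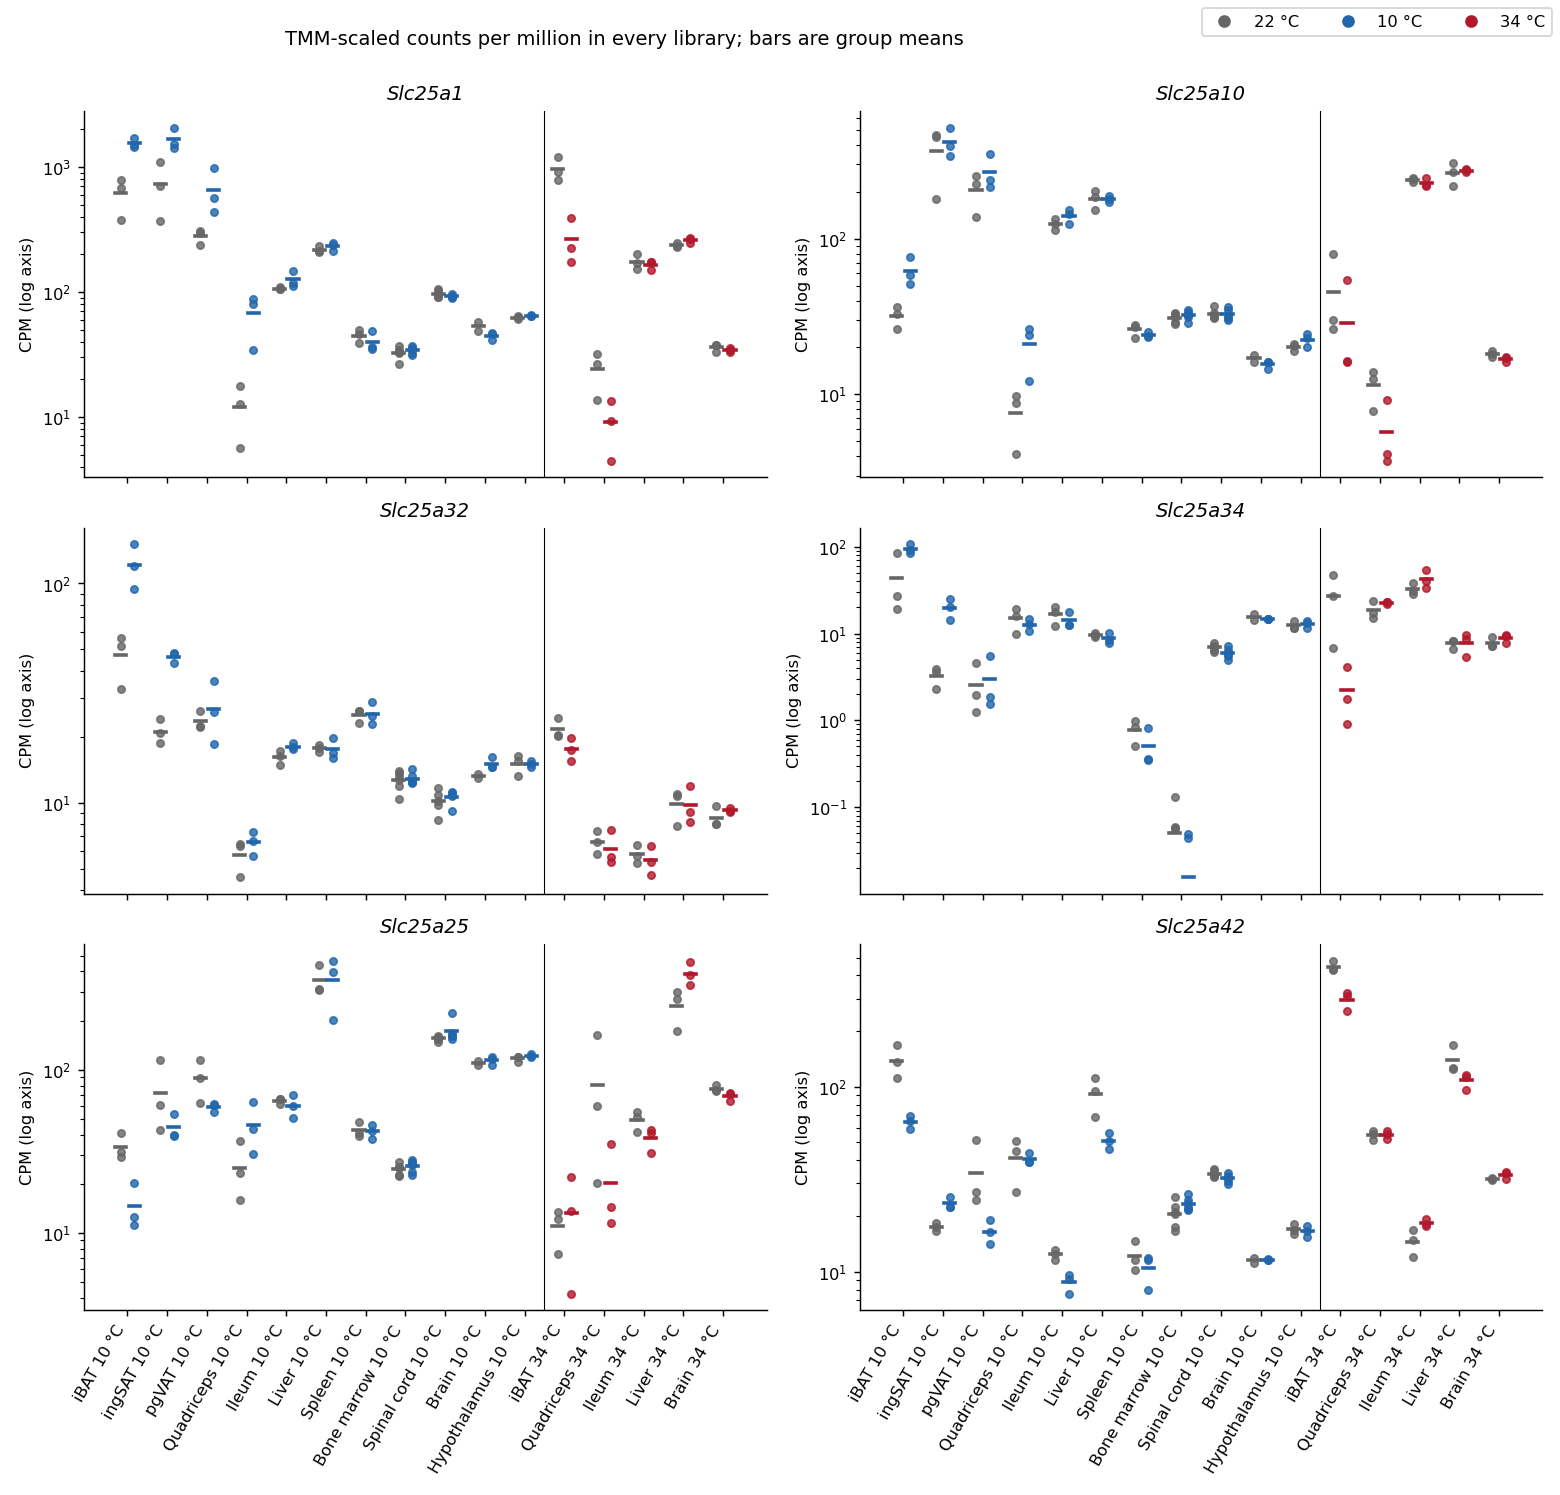
CPM (vertical, log axis, on which libraries at 0 are not drawn) of Slc25a1, Slc25a10, Slc25a32, Slc25a34, Slc25a25 and Slc25a42 in every library by comparison (horizontal), with grey points at 22 °C, blue at 10 °C and red at 34 °C, and bars at the group means. In iBAT, Slc25a1 lies at 380 to 789 at 22 °C and 1453 to 1697 at 10 °C, and at 782 to 1207 and 175 to 393 in the warm experiment.

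Slc25a34 (ENSMUSG00000040740, chr4:141618824-141623821, minus strand), a carrier with no settled substrate, had the largest fold change of any call in either direction. In ingSAT it went from 3.63, 3.90 and 2.31 CPM at 22 °C to 14.3, 24.7 and 19.96 CPM at 10 °C, a log2 fold change of 2.59 (SE 0.296, adjusted p = 0.00732), with no overlap. In iBAT at 34 °C it went from 47.8, 6.89 and 26.7 CPM to 4.07, 1.78 and 0.907 CPM, a log2 fold change of -3.57 (SE 0.78, adjusted p = 0.0158), also without overlap. Groups lay apart in the same directions for 16.4% of all genes tested in ingSAT and 24.6% in iBAT at 34 °C. In iBAT at 10 °C Slc25a34 was called higher, from 27.3, 19 and 85.5 CPM to 83.9, 107 and 91.1 CPM (1.09, SE 0.461, adjusted p = 0.163), but 1 control library lay among the cold ones. That call was lost without 10 °C replicate 2 (0.997) or 3 (1.12), without 22 °C replicate 1 (0.84) or 2 (0.73), in DESeq2 (1.11) and with library-size scaling (0.93), and the value rose to 2.03 without 22 °C replicate 3, the control at 85.5 CPM. In pgVAT its libraries held 1.96, 1.25 and 4.55 CPM at 22 °C and 1.55, 5.55 and 1.84 CPM at 10 °C, with no call.

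Brown adipocyte markers moved in the same direction as Slc25a34 and most other members called in ingSAT and in iBAT at 34 °C. The exceptions were Slc25a12 and Slc25a30 in ingSAT, and Slc25a27, Slc25a29 and Slc25a47 in iBAT at 34 °C. The 6 markers summed to 139, 137 and 84.5 CPM in ingSAT at 22 °C and to 1973, 2578 and 2122 CPM at 10 °C, all 6 called higher, and to 12913, 9842 and 10653 CPM in iBAT at 22 °C and 4644, 6047 and 5281 CPM at 34 °C, with 4 of 6 called lower. Within ingSAT, the cold library with the highest sum (2578) was also the highest for Slc25a34 (24.7). Slc25a17 and Slc25a32 were instead highest in the cold library with the lowest sum (1973). Whether the share of brown adipocytes or the RNA per cell changed was not tested.

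The promoter of Slc25a34 (GRCm38.p6, chr4:141623785-141624084, minus strand, 5′ to 3′) is shown because it was the only one of the 35 members to hold the ERR half-site AAGGTCA, which lies on the other strand and is printed as TGACCTT in capitals, 119 bases before the start.
Slc25a34: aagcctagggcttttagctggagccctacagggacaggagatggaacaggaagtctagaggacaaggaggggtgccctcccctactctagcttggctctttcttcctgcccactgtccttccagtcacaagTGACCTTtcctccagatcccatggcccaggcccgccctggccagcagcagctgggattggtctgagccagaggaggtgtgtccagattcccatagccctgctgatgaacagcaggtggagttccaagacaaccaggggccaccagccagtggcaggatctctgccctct
AAGGTCA was found in 4.72% of all promoters and in 1 of the 45 member promoters when both strands were searched.

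Other carboxylate carriers and relatives of the uncoupling proteins changed less. Slc25a10 was higher in iBAT at 10 °C, from 36.4, 32.6 and 26.4 CPM to 75.7, 51.1 and 58.4 CPM (log2 fold change 0.96, SE 0.174, adjusted p = 0.00984). Its ingSAT libraries overlapped, with 464, 449 and 179 CPM at 22 °C and 518, 342 and 396 CPM at 10 °C. Slc25a35, a relative of Slc25a34, was higher in ingSAT, from 20.9, 18.4 and 14.03 CPM to 37.0, 27.04 and 38.4 CPM (0.94, SE 0.203, adjusted p = 0.0401), and 31.3% of its exon sequence lies opposite to Rangrf. In liver it was called lower at 1.32, 1.14 and 2.08 CPM against 0.736, 0.745 and 1.16 CPM (-0.76, SE 0.329, adjusted p = 0.263) with overlapping groups, and that call was lost without 22 °C replicate 3 (-0.47), without 10 °C replicate 1 or 2 (both -0.65) and in DESeq2 (-0.78). Slc25a30, an uncoupling protein-like carrier, was lower in ingSAT, from 21, 23.03 and 19.96 CPM to 12.0, 14.96 and 13.4 CPM (-0.66, SE 0.147, adjusted p = 0.0435). Slc25a11, the oxoglutarate carrier, and Slc25a14, an uncoupling protein-like carrier of brain, were called in none of the 16 comparisons.

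Of the cofactor and nucleotide carriers, 5 of 9 tested were called higher in ingSAT and none lower, beside 7.2% of all genes higher, with a median log2 fold change of 0.65 over the 9. Of the 9 carboxylate and uncoupling protein-like carriers, 3 were called higher and 1 lower there, beside 7.2% of all genes higher and 9.14% lower. Slc25a32 (ENSMUSG00000022299, chr15:39091231-39112716, minus strand), which imports folate and FAD, was higher in both iBAT and ingSAT. It went from 51.8, 56.3 and 32.99 CPM to 151, 94.2 and 120.3 CPM in iBAT (log2 fold change 1.38, SE 0.227, adjusted p = 0.0071) and from 18.6, 20.7 and 23.98 CPM to 48.1, 47.5 and 43.2 CPM in ingSAT (1.13, SE 0.132, adjusted p = 0.00762). Neither depot showed overlap, and groups lay apart in this direction for 16.4% of all genes tested in each.

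Others were called in ingSAT and not in iBAT at 10 °C. Slc25a17, a carrier of coenzyme A and other nucleotide cofactors in peroxisomes, went from 48.6, 47.8 and 43.5 CPM to 92.1, 84.1 and 80.8 CPM in ingSAT (log2 fold change 0.88, SE 0.108, adjusted p = 0.00839). Slc25a51, the NAD carrier, went from 178, 172 and 132 CPM to 292, 289 and 289 CPM (0.86, SE 0.144, adjusted p = 0.0201). Slc25a33, a pyrimidine nucleotide carrier, was called at 0.65 (SE 0.177, adjusted p = 0.0691), and 14.9% of its exon sequence lies opposite to Gm13068.

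At 34 °C several of these carriers were lower in iBAT. Slc25a17 went from 140, 84.1 and 128 CPM to 45.4, 45.8 and 43.1 CPM (log2 fold change -1.39, SE 0.18, adjusted p = 0.00296). Slc25a51 went from 729, 597 and 629 CPM to 329, 377 and 493.1 CPM (-0.71, SE 0.164, adjusted p = 0.0193), and Slc25a33 from 86.4, 53.3 and 62.1 CPM to 30.6, 43.8 and 47.7 CPM (-0.72, SE 0.219, adjusted p = 0.0448). The groups did not overlap for any of these genes, and 24.6% of all genes tested there lay apart in this direction. The calls of Slc25a51 and Slc25a33 fell under the fold limit when libraries were scaled by size only (-0.44 and -0.46), and Slc25a33 was also lost without 22 °C replicate 1 (-0.50) or 34 °C replicate 1 (-0.56). Slc25a36, another pyrimidine nucleotide carrier, was the lone call in ileum at 34 °C, at 17.2, 20.7 and 23.9 CPM against 26.99, 61.0 and 29.6 CPM (0.93, SE 0.325, adjusted p = 0.594), and dropped to 0.46 without 34 °C replicate 2. It was also lost without 22 °C replicate 1 (0.81) or 2 (0.93). The next lowest p in ileum at 34 °C was that of Slc25a42 (0.34, SE 0.141, adjusted p = 0.594), which passed neither call limit.

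Slc25a42 (ENSMUSG00000002346, chr8:70184340-70212305, minus strand), the coenzyme A carrier of the inner membrane, was called lower in 3 tissues at 10 °C. In iBAT it fell from 111, 135 and 168 CPM to 58.9, 65.3 and 69.2 CPM (log2 fold change -1.10, SE 0.157, adjusted p = 0.00378), the lowest adjusted p of any member there. In liver it fell from 111, 94.9 and 68.5 CPM to 51.2, 56.0 and 46.2 CPM (-0.84, SE 0.158, adjusted p = 0.0941). In pgVAT it fell from 24.5, 26.99 and 51.6 CPM to 19.05, 16.4 and 14.1 CPM (-1.05, SE 0.337, adjusted p = 0.593). The cold libraries were below the controls in all 3 tissues. Groups lay apart in this direction for 16.8% of all genes tested in iBAT, 11.8% in liver and 6.78% in pgVAT.

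In ingSAT, Slc25a42 held 17.5, 18.4 and 16.5 CPM at 22 °C and 22.4, 22.5 and 25.3 CPM at 10 °C (0.42, SE 0.126, adjusted p = 0.0862), which did not pass the fold limit. The difference of the cold effect between iBAT and ingSAT was -1.50 (SE 0.326, adjusted p = 0.0904) and that between ingSAT and pgVAT was 1.46 (SE 0.33, adjusted p = 0.111). At 34 °C it was lower in iBAT too, from 480, 435 and 426 CPM to 321, 257 and 308 CPM (-0.60, SE 0.115, adjusted p = 0.0103), so that it was called lower at both temperatures in iBAT. That call was close to the fold limit and was lost under library-size scaling (-0.32) and without 22 °C replicate 1 (-0.55) or 34 °C replicate 2 (-0.53). The pgVAT call was lost without 10 °C replicate 3 (-0.95) and without both epididymis-rich libraries (-1.03), and its highest control, at 51.6 CPM, was also the pgVAT library richest in brown adipocyte markers (451 CPM beside 15.2 and 37.0 CPM).

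Amino acid and glutathione carriers changed in both directions in fat. Slc25a39 (ENSMUSG00000018677, chr11:102402985-102407946, minus strand), which imports glutathione, was higher in iBAT, from 262, 315 and 397 CPM to 584, 624 and 599 CPM (log2 fold change 0.89, SE 0.165, adjusted p = 0.0108), and in ingSAT, from 150.3, 161 and 119.5 CPM to 264, 239 and 254.5 CPM (0.81, SE 0.143, adjusted p = 0.0226). Slc25a12, the aspartate/glutamate carrier of the malate-aspartate shuttle, was lower in iBAT, from 44.4, 35.5 and 34.1 CPM to 26.5, 23.6 and 14.2 CPM (-0.82, SE 0.216, adjusted p = 0.0418). It was also called lower in ingSAT (-0.63, SE 0.202, adjusted p = 0.104), a call lost without 10 °C replicate 1 (-0.49), 22 °C replicate 1 (-0.58) or 22 °C replicate 2 (-0.53). Skeletal muscle markers, which sit beside Slc25a12 because muscle expresses it, summed to 9334, 6637 and 6053 CPM in iBAT at 22 °C and to 4839, 5143 and 2513 CPM at 10 °C, with 4 of 7 called lower, and their part was not tested.

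Slc25a48 (ENSMUSG00000021509, chr13:56438355-56474239, plus strand), a choline carrier, was called in 3 tissues at 10 °C. In ingSAT it held 0.764, 0.709 and 0.725 CPM at 22 °C and 3.23, 2.45 and 1.92 CPM at 10 °C, where it passed the filter on low values only through its 10 °C libraries and so had to differ. In iBAT it went from 8.34, 10.8 and 5.12 CPM to 15.7, 11.3 and 15 CPM (log2 fold change 0.81, SE 0.259, adjusted p = 0.0786), which fell to 0.55 without 22 °C replicate 3. In liver it went the other way, from 13.7, 9.75 and 6.94 CPM to 5.89, 6.13 and 3.84 CPM (-0.95, SE 0.261, adjusted p = 0.13). The groups did not overlap in iBAT or liver, where 16.4% of all genes tested lay apart as higher and 11.8% as lower, respectively. They lay apart in ingSAT too, which the filter made likely beforehand. The counts behind Slc25a48 were low, from 8 to 39 reads per library in ingSAT.

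Slc25a22, a glutamate carrier, had the lowest adjusted p of any member in iBAT at 34 °C. It fell from 233, 245 and 231 CPM to 108, 125 and 123 CPM (log2 fold change -0.99, SE 0.0917, adjusted p = 0.00111). Slc25a15, the ornithine carrier, fell from 34.8, 27.4 and 32.7 CPM to 18.8, 20.9 and 20.1 CPM (-0.66, SE 0.112, adjusted p = 0.00664), a change that was under the fold limit with library-size scaling (-0.40). Slc25a29, a carrier of basic amino acids, rose from 3.09, 3.03 and 3.53 CPM to 5.06, 5.13 and 5.77 CPM (0.73, SE 0.187, adjusted p = 0.0271). Slc25a47 (0.69, SE 0.225, adjusted p = 0.0563) and Slc25a27, an uncoupling protein-like carrier of neurons (0.80, SE 0.276, adjusted p = 0.0655), were called higher at low levels of 3.47 to 7.17 CPM and 2.46 to 6.43 CPM. The first was lost without 34 °C replicate 3 (0.49), and the latter without 34 °C replicate 1 (0.62) or 3 (0.71) or 22 °C replicate 3 (0.66).

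In liver at 34 °C, Slc25a45, a relative of the basic amino acid carriers, was the only member with an adjusted p under 0.05. It fell from 27.1, 31.3 and 38.9 CPM to 15.8, 15.6 and 16.2 CPM (log2 fold change -1.03, SE 0.134, adjusted p = 0.0231). The 3 warm libraries lay close together and below all controls, and 8.44% of all genes tested there lay apart in this direction. Slc25a47, the liver-restricted carrier, stood at 845, 856 and 888 CPM at 22 °C and at 719, 683 and 625.5 CPM at 34 °C (-0.35, SE 0.0842, adjusted p = 0.169), without overlap but under the fold limit. In liver at 10 °C it held 378, 480 and 382 CPM and then 438.5, 413 and 375 CPM (-0.02, SE 0.11).

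Slc25a47 (ENSMUSG00000048856, chr12:108836046-108856815, plus strand) was also called in pgVAT at 10 °C, where its libraries moved with epididymis RNA. It had 7.39, 7.20 and 8.24 CPM at 22 °C and 37.3, 8.64 and 49.0 CPM at 10 °C (log2 fold change 2.06, SE 0.589, adjusted p = 0.593). The 2 high libraries were those with 19237 and 22597 CPM of epididymis markers, and the library at 8.64 CPM was the one with 3.16 CPM. Without the 2 rich libraries the log2 fold change was 0.21. Slc25a13 (18.2, 2.25 and 30.7 CPM at 10 °C), Slc25a21 (10.01, 0.281 and 8.55 CPM) and Slc25a29 (16.5, 8.08 and 37.4 CPM) were also lowest in the library poor in epididymis markers, and none of these passed the call limits.

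**Figure D4:**
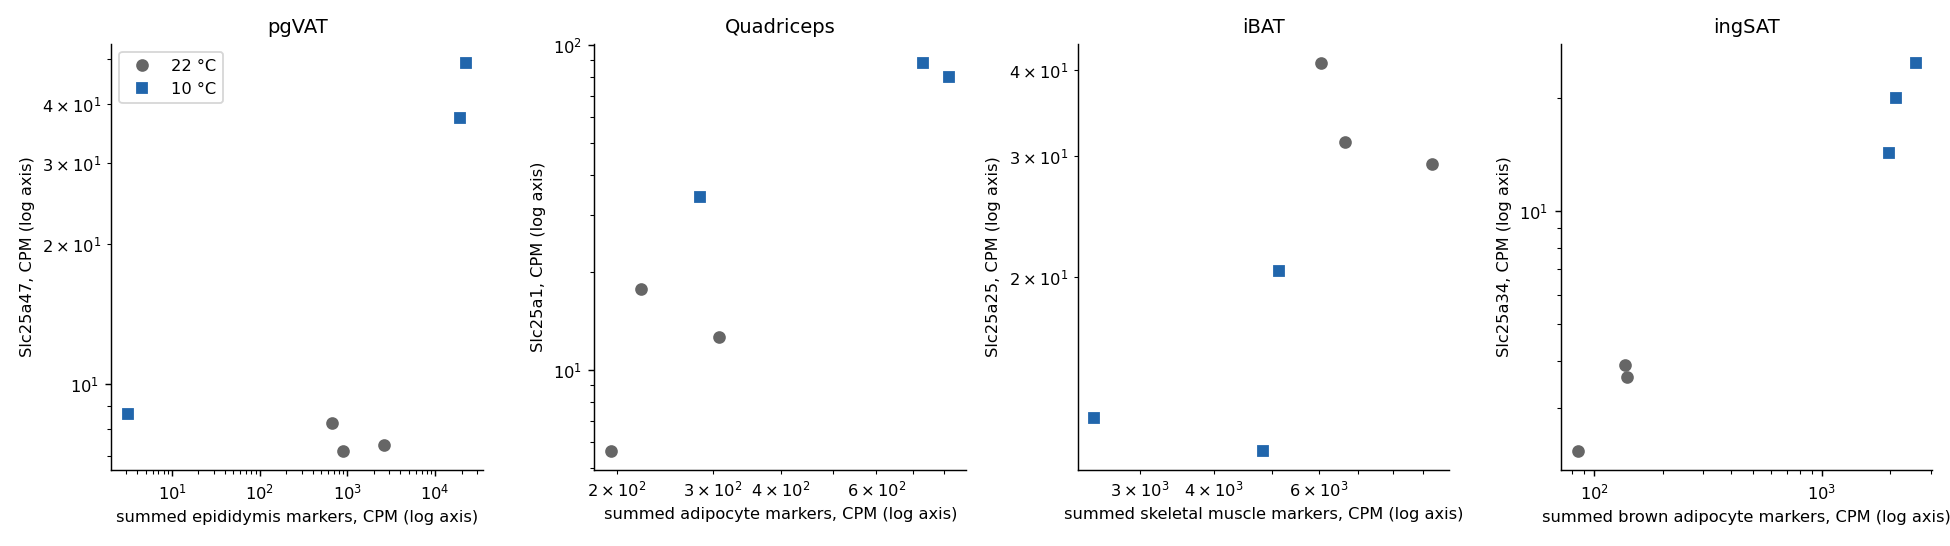
A member's CPM (vertical, log axis) against the summed CPM of a marker list (horizontal, log axis) in each library of the cold experiment, for Slc25a47 and epididymis in pgVAT, Slc25a1 and adipocyte in quadriceps, Slc25a25 and skeletal muscle in iBAT, and Slc25a34 and brown adipocyte in ingSAT. In pgVAT the libraries at 37.3 and 49.0 CPM of Slc25a47 are those with 19237 and 22597 CPM of epididymis markers.

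The ADP/ATP and phosphate carriers, which serve oxidative phosphorylation directly, changed little in the cold. Slc25a4 held 746, 710 and 645 CPM in iBAT at 22 °C and 670, 569 and 577 CPM at 10 °C (log2 fold change -0.21, SE 0.136, adjusted p = 0.355), and was not called in any comparison. Slc25a5 was higher in ingSAT, from 90.4, 85.0 and 84.0 CPM to 146, 122 and 123 CPM (0.59, SE 0.115, adjusted p = 0.0304), a fold just over the limit that was lost without 10 °C replicate 1 (0.50) or 22 °C replicate 2 (0.58). In ileum at 10 °C it had the lowest p of the members, at 304, 341 and 343 CPM against 458, 433 and 436 CPM, but stayed under the fold limit (0.43, SE 0.0724, adjusted p = 0.0785). Slc25a22 came next there, at 114, 116 and 131 CPM against 155, 159 and 151 CPM (0.37, SE 0.0718, adjusted p = 0.0987). In quadriceps Slc25a5 stood at 0.55 at 10 °C, the highest of the members not called. At 34 °C it had the lowest p of the members there (-0.51, SE 0.123, adjusted p = 0.985), under the fold limit. Its cold and warm effects in quadriceps differed by 1.05 (SE 0.256, adjusted p = 0.118). Slc25a3, the phosphate carrier, was lower in iBAT at 34 °C, from 445, 422 and 408 CPM to 237, 342 and 229 CPM (-0.66, SE 0.163, adjusted p = 0.0233), and was lost with library-size scaling (-0.39) and without 34 °C replicate 1 (-0.58) or 3 (-0.57).

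Slc25a25 (ENSMUSG00000026819, chr2:32414487-32451445, minus strand), a calcium-dependent ATP-Mg/phosphate carrier of muscle and other tissues, fell in iBAT at 10 °C from 29.2, 31.4 and 40.9 CPM to 11.2, 20.4 and 12.5 CPM (log2 fold change -1.22, SE 0.231, adjusted p = 0.012). The cold libraries were all below the controls, as for 16.8% of all genes tested there. The muscle markers were lower in the cold libraries too (4839, 5143 and 2513 CPM beside 9334, 6637 and 6053 CPM), and their part was not tested. The cold library with the highest marker sum (5143 CPM) was also the highest for Slc25a25 (20.4 CPM), while the control with the highest sum (9334 CPM) had the lowest control level (29.2 CPM). In liver at 34 °C it was called higher, from 270, 173 and 297 CPM to 378, 456 and 328 CPM (0.65, SE 0.198, adjusted p = 0.251), a call lost with library-size scaling (0.58) and without 22 °C replicate 2 (0.45) or 34 °C replicate 2 (0.52).

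In quadriceps its controls were uneven. They held 23.2, 15.9 and 36.4 CPM in the cold experiment and 20.2, 163 and 59.9 CPM in the warm one, beside 63.4, 43.6 and 30.6 CPM at 10 °C (log2 fold change 0.86, SE 0.345, adjusted p = 0.452) and 11.48, 14.5 and 34.9 CPM at 34 °C (-1.997, SE 0.704, adjusted p = 1). Both comparisons had overlapping groups. With the controls of both experiments pooled, the value at 10 °C turned to -0.19, and neither call held. The cold call was also lost without 4 of the 6 libraries (0.56 to 0.91, 10 °C replicates 1 and 2 and 22 °C replicates 1 and 2), and the warm call was lost without 22 °C replicate 2 (-0.98), 34 °C replicate 1 (-1.72) or 34 °C replicate 2 (-1.81).

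The Slc25a25 promoter shown is 1 of 3 in the RefSeq table (GRCm38.p6, chr2:32424017-32424316, minus strand, 5′ to 3′), chosen because it holds the cAMP response element TGACGTCA, in capitals, 150 bases before the start.
Slc25a25: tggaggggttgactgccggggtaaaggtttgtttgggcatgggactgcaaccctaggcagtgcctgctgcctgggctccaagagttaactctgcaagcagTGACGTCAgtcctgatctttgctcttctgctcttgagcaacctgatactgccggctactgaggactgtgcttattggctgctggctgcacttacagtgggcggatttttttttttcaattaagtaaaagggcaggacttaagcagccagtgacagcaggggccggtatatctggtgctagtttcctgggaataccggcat
The motif was found in 1.79% of all promoters and in 2 of the 45 member promoters, those of Slc25a25 and Slc25a36. Its letters are the same on both strands.

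Slc25a23 (ENSMUSG00000046329, chr17:57043711-57059863, minus strand), another ATP-Mg/phosphate carrier, was called lower in 3 tissues at 10 °C. In liver, where its level was highest, it went from 198, 164 and 124 CPM to 104.5, 100.5 and 87.7 CPM (log2 fold change -0.73, SE 0.153, adjusted p = 0.0947). In pgVAT it went from 51.1, 68.7 and 119 CPM to 30.6, 46.9 and 24.7 CPM (-1.22, SE 0.388, adjusted p = 0.593), and in ileum from 9.09, 7.40 and 7.34 CPM to 5.38, 5.18 and 4.70 CPM (-0.64, SE 0.145, adjusted p = 0.123). The groups did not overlap in these tissues. The calls were lost without 22 °C replicate 1 in liver (-0.57) or ileum (-0.53), and in pgVAT without 22 °C replicate 3 (-0.80), 10 °C replicate 1 (-1.15), 10 °C replicate 3 (-1.03) or both epididymis-rich libraries (-0.73). The pgVAT control at 119 CPM was the library with 451 CPM of brown adipocyte markers.

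Iron carriers and members of less settled function were called 2 times, in fat and gut. Slc25a46, an outer membrane protein of mitochondrial dynamics, was called higher in ingSAT, from 70.7, 67.4 and 117.5 CPM to 156, 157 and 156 CPM (log2 fold change 0.87, SE 0.22, adjusted p = 0.0588). Slc25a53 was called lower in ileum at 10 °C, from 5.42, 5.87 and 7.08 CPM to 3.44, 3.31 and 4.26 CPM (-0.74, SE 0.175, adjusted p = 0.132). The mitoferrins Slc25a28 and Slc25a37 were not called in any comparison.

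The 15 members that were tested and never called were Slc25a4, Slc25a11, Slc25a14, Slc25a28 and Slc25a37, described above, and Slc25a2, Slc25a13, Slc25a16, Slc25a18, Slc25a21, Slc25a24, Slc25a26 (the S-adenosylmethionine carrier), Slc25a38, Slc25a40 (a glutathione carrier) and Slc25a43. Slc25a43 stayed under the filter in 15 of the 16 comparisons, Slc25a2 in 12, Slc25a21 and Slc25a48 in 8, Slc25a18 in 6, Slc25a13 in 4, Slc25a53 in 3, Slc25a34 in 2, and Slc25a24, Slc25a35 and Slc25a36 in 1. Log2 fold changes of the members that were not called ran from -0.44 to 0.48 in iBAT at 10 °C, from -0.71 to 0.91 in ingSAT and from -1.10 (Slc25a18) to 1.44 (Slc25a13) in pgVAT.

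Spleen, bone marrow, spinal cord, brain and hypothalamus had no member past the call limits of edgeR at 10 °C, and neither had brain at 34 °C. DESeq2 and edgeR's exact test also gave 0 calls in each. At the unadjusted p alone, 10 of 37 members passed in bone marrow (33% of all genes), 3 of 39 in spinal cord (5.79%), 4 of 38 in brain at 10 °C (8.85%), 2 of 38 in brain at 34 °C (2.64%), and 0 in spleen (10%) and hypothalamus (6.18%). The shares of all genes past both limits were 2.68% in spleen, 1.29% in bone marrow, 0.271% in spinal cord, 0.801% in brain at 10 °C, 0.578% in hypothalamus and 0.193% in brain at 34 °C.

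Bone marrow, with 6 libraries per group, resolved smaller differences, and 6 of 37 members had an adjusted p under 0.05 there at folds under the limit, as had 19% of all genes at any fold. Slc25a37 (ENSMUSG00000034248, chr14:69241848-69285112, minus strand) held 1717 to 2177 CPM at 22 °C (median 2063) and 2343 to 2670 CPM at 10 °C (median 2477), without overlap (log2 fold change 0.30, SE 0.0591, adjusted p = 0.00555). Slc25a51 held 391 to 477 CPM (median 445) and 492 to 568.3 CPM (median 526.1), also without overlap (0.24, SE 0.0537, adjusted p = 0.00816). Groups lay apart in this direction for 2.67% of all genes tested there. Slc25a39 (0.35), Slc25a21 (0.25) and Slc25a38 (0.20), a glycine carrier needed for haem, were higher with overlapping groups, and Slc25a45 was lower (-0.32). Red cell precursor markers summed to 8237 to 10481 CPM at 22 °C and 10772 to 13740 CPM at 10 °C, with 0 of the 4 tested called, and neutrophil precursor markers to 18483 to 25987 CPM and 17260 to 18051 CPM. The part of the cell makeup in these small differences was not tested.

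In spleen the members with the lowest p were Slc25a38, at 61.8, 74.8 and 104 CPM against 42.7, 66.0 and 65.7 CPM (log2 fold change -0.46, SE 0.218, adjusted p = 0.516), and Slc25a23, at 5.34, 5.15 and 5.40 CPM against 7.63, 6.77 and 5.51 CPM (0.33, SE 0.169, adjusted p = 0.529). Neutrophil precursor markers fell there from 139 to 260 CPM at 22 °C to 23.6 to 39.0 CPM at 10 °C, 6 of 6 called lower. In brain at 10 °C they were Slc25a1, at 49.0 and 57.2 CPM against 46.7, 46.5 and 41.4 CPM (-0.24, SE 0.0907, adjusted p = 0.449), and Slc25a36, at 45.8 and 41.4 CPM against 48.6, 51.9 and 52.7 CPM (0.23, SE 0.0859, adjusted p = 0.449). In spinal cord Slc25a45 held 6.61 to 9.76 CPM (median 7.82) against 5.27 to 7.07 CPM (median 6.45), and Slc25a33 held 57.2 to 65.4 CPM (median 59.4) against 62.3 to 68.1 CPM (median 65.2), both with an adjusted p of 0.78. In hypothalamus the lowest p went to Slc25a2, an ornithine carrier, at 0.915, 0.819 and 1.04 CPM against 1.24, 1.51 and 1.26 CPM (0.52, SE 0.273, adjusted p = 0.806), and to Slc25a10 (0.16, SE 0.0908, adjusted p = 0.835). In brain at 34 °C it went to Slc25a18, a glutamate carrier, at 63.3, 70.2 and 56.4 CPM against 54.6, 58.7 and 52.2 CPM (-0.20, SE 0.0824), and to Slc25a25, at 73.7, 80.1 and 75.6 CPM against 64.1, 72.2 and 70.6 CPM (-0.15, SE 0.0634), both with an adjusted p of 1. None of these differences passed the call limits.

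The cold effect was next compared between fat depots, as the difference of log2 fold changes in a fit over the 3 depots, adjusted over all genes. Libraries of different depots may come from the same mice, and the fit took them as independent. Between ingSAT and pgVAT, 1 of 41 members had an adjusted p under 0.05, beside 0.159% of all genes, and this count ran from 0 to 14 with 1 library left out (14 without pgVAT 10 °C replicate 2). Between iBAT and ingSAT, and between iBAT and pgVAT, 0 members had an adjusted p under 0.05, beside 0.0691% and 0.407% of all genes. Before adjustment, 5 and 9 of 41 members passed, beside 10.8% and 15.8% of all genes.

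In iBAT, the cold effect and the warm effect differed for 15 of 38 members at an adjusted p under 0.05, where 30.5% of all genes did. The widest difference was that of Slc25a34 (4.63, SE 0.992, adjusted p = 0.005), followed by Slc25a1 (3.17, SE 0.448, adjusted p = 0.000463), Slc25a17 (1.81, SE 0.27), Slc25a32 (1.66, SE 0.303) and Slc25a39 (1.26, SE 0.217), all higher in the cold relative to the warmth. Slc25a47, Slc25a27 and Slc25a29 differed in the other direction, and with 1 library left out these differences held in 11, 3 and 1 of 12 fits. Slc25a1 and Slc25a34 were called in opposite directions in the 2 experiments. Slc25a32 and Slc25a39 were called at 10 °C and not at 34 °C, where Slc25a32 held 20.2, 20.4 and 24.4 CPM against 17.4, 15.4 and 19.7 CPM (-0.31, SE 0.13) and Slc25a39 held 598, 465 and 514 CPM against 342, 430.5 and 421 CPM (-0.40, SE 0.136). Skeletal muscle markers in the warm iBAT libraries were uneven, at 101, 4809 and 96.6 CPM at 22 °C and 3752, 1110 and 1268 CPM at 34 °C.

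**Figure D5:**
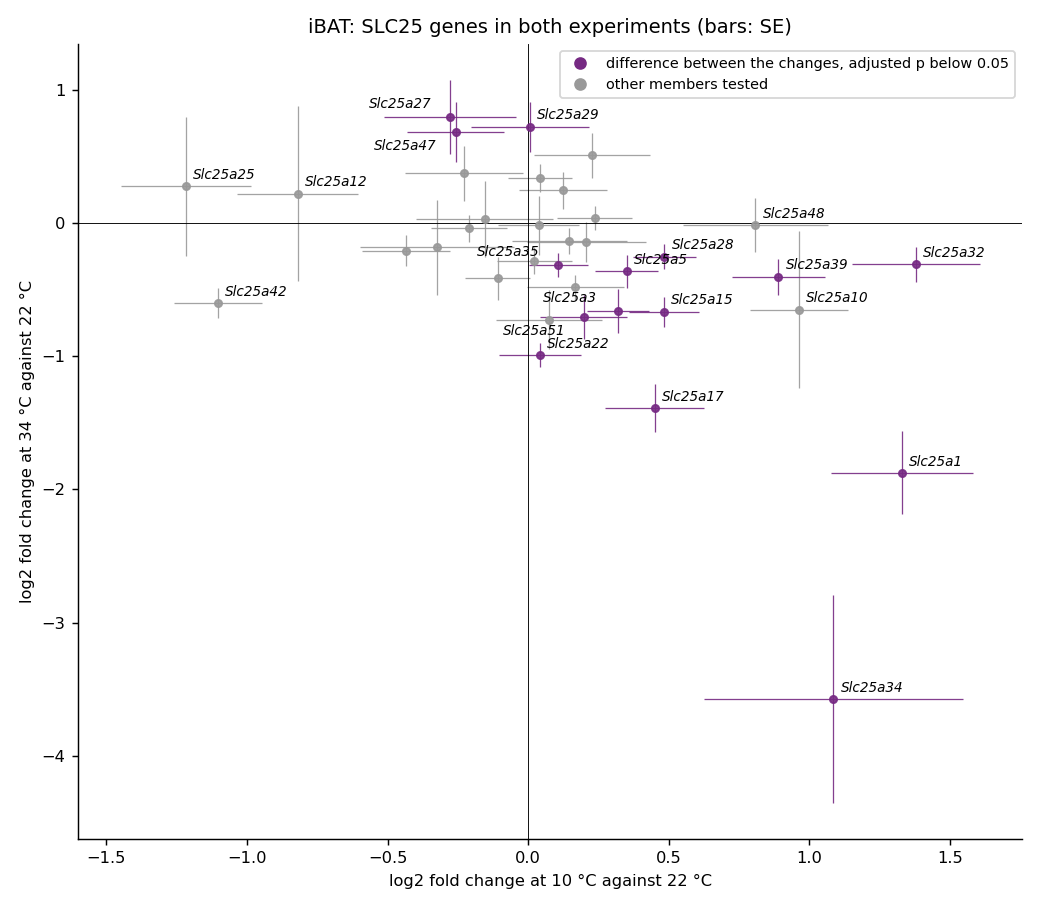
The log2 fold change in iBAT at 34 °C (vertical) against that at 10 °C (horizontal) for members tested in both, with bars of 1 SE; purple points are those whose difference between the experiments had an adjusted p under 0.05. Slc25a34 (1.09 and -3.57) and Slc25a1 (1.33 and -1.88) lie furthest into the lower right, and Slc25a42 (-1.10 and -0.60) lies in the lower left.

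In quadriceps, Slc25a1 was the only 1 of 35 members whose effects differed (3.89, SE 0.711, adjusted p = 0.0384), beside 0.482% of all genes, and the adjusted p stayed under the threshold in 4 of 12 fits with 1 library left out (difference 3.55 to 4.30). In ileum, liver and brain 0 members differed by edgeR's test at that threshold, beside 0%, 0.0348% and 0% of all genes. Before adjustment 11 of 39, 6 of 39 and 1 of 38 members passed, beside 12.4%, 13.1% and 4.82% of all genes. These differences were tested with edgeR only.

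Of 11 enzymes of the malate-aspartate shuttle and of citrate export, 6 were called higher and none lower in iBAT at 10 °C (6% of all genes higher), 7 and none in ingSAT (7.2%), 4 and none in pgVAT (4.46%), and 3 and none in quadriceps (3.09%). The largest changes in these 4 tissues were those of Me1, the malic enzyme that makes NADPH (log2 fold change 2.09 in iBAT, SE 0.321, adjusted p = 0.00517), Gpd2, the mitochondrial glycerol phosphate dehydrogenase (1.67 in ingSAT, SE 0.268, adjusted p = 0.0175), Acly, which splits exported citrate (2.33 in pgVAT, SE 0.436, adjusted p = 0.593), and Fasn, the fatty acid synthase (3.17 in quadriceps, SE 0.449, adjusted p = 0.102). Me1 alone was called higher in ileum (0.98) and in spleen (0.94), and Gpd1 alone in bone marrow (0.69). The shares of all genes higher there were 1.44%, 0.638% and 0.647%. At 34 °C, 6 of the 11 were lower and 1 higher in iBAT (7.19% of all genes lower and 12.2% higher), and 3 were lower in quadriceps (0.919% lower), with Fasn at -2.75 and -2.30. In liver at 34 °C, 2 were lower and 1 higher (1.61% of all genes lower and 1.77% higher), where Slc25a1 was not called.

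Of 12 genes of the machinery that inserts carriers into the inner membrane, 1 was called higher in iBAT at 10 °C (Timm22, the channel of the carrier translocase, at 0.67), beside 6% of all genes, 4 were higher in ingSAT (Timm8a1 at 1.62), beside 7.2%, and 0 were called in pgVAT. In iBAT at 34 °C, 6 of 11 were lower (Timm22 at -1.09, SE 0.0989, adjusted p = 0.00108), beside 7.19% of all genes. Of 12 other carriers and pores, 4 were higher in iBAT at 10 °C (Mpc2, a subunit of the pyruvate carrier, at 0.94), beside 6% of all genes. In ingSAT 7 were higher (Ucp1 at 7.35), beside 7.2%. In iBAT at 34 °C, 6 were lower and 1 higher (Ucp1 at -2.26), beside 7.19% lower and 12.2% higher. Of 6 regulators of mitochondrial biogenesis, 4 were higher in ingSAT (Ppargc1b at 1.08), beside 7.2% of all genes. In iBAT at 10 °C, 2 were lower (Ppargc1a at -0.91), beside 7.24%. In iBAT at 34 °C, Ppargc1a was lower too (-1.45), beside 7.19% of all genes, and in liver at 10 °C Ppargc1b was lower (-0.88), beside 2.54%. Haem and iron-sulfur genes had 2 of 9 higher and 1 lower in ingSAT, beside 7.2% of all genes higher and 9.14% lower. In iBAT at 34 °C, 1 was higher (Alas1, the first enzyme of haem synthesis, at 1.12), beside 12.2%. Of the urea cycle enzymes, 3 were tested in iBAT at 10 °C and 2 were lower, beside 7.24% of all genes. Cps1, counted among these 2, was at 5.53, 6.93 and 7.83 CPM at 22 °C and 0 to 0.0679 CPM at 10 °C. It passed the filter on low values only through its 22 °C libraries and so had to differ. Of the 5 hepatocyte markers tested there, 4 were called lower as well.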

How the data were processed

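RNA from 106 bulk samples was sequenced by the authors and deposited as raw counts per gene in 4 tables, made on the mm10 build. The submitters' processing notes name STAR 2.5.3a, Picard 1.141 and HTSeq 0.6p1. Counts were not normalised before deposit. In the largest table, 21583 of 21647 Ensembl identifiers were given symbols, and positions and exon lengths came from the GENCODE M21 annotation of GRCm38. Samples were grouped by tissue and temperature from their labels. Brain 22 °C replicate 2 was left out, since the deposited group mean is that of the other libraries. Quadriceps libraries were compared with the 22 °C libraries of the same experiment.

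Each cold or warm group was compared with its own 22 °C group with edgeR 4.0.16 (R 4.3.3), by a two-sided quasi-likelihood F-test with TMM factors. Each fit used only the libraries of that comparison, and all genes of the table with an average log2 CPM above 0. A call needed a p before adjustment not above 0.05 and a fold above 1.5. Adjusted p-values are Benjamini-Hochberg values over the genes tested in a fit. The SE is the absolute log2 fold change divided by the square root of F. CPM used TMM-scaled library sizes. Differences of effects were interaction terms of the same model, fitted over all the groups involved. Libraries of different fat depots were taken as independent there. The tests were checked on simulated counts. P-values measure the spread between libraries, most of which pool 2 mice.

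Alternatives were DESeq2 1.42.0 with its size factors, edgeR's exact test, library-size scaling, no filter beyond 1 count, a replicate block, the 22 °C libraries of both experiments, and each library left out in turn. Leaving out the 2 pgVAT libraries rich in epididymis markers was added after the data were seen. Members and gene lists were chosen with earlier results of these data known. Full values are given for members with a call and an adjusted p under 0.05, those called in 3 or more tissues at 10 °C, the 2 members with the lowest p elsewhere and those whose effects differed, and genes of other lists only where called with the largest change of their list. For some of these members only the log2 fold change or the difference is given, without the values of each library. Other members that were called were named after their values were seen. Promoters were taken from the RefSeq table, in which 10 members had none. Values of some genes are not reported here.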

Additional observations from a re-analysis of the deposited data

Results flagged for a closer look

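In iBAT, 15 members differed between the cold effect and the warm effect, each taken against its own 22 °C libraries, in edgeR's test of that difference. For 12 members the difference was positive, at 4.63 for Slc25a34, 3.17 for Slc25a1, 1.81 for Slc25a17, 1.66 for Slc25a32, 1.26 for Slc25a39, 1.12 for Slc25a15, 1.003 for Slc25a22, 0.95 for Slc25a3, 0.88 for Slc25a51, 0.71 for Slc25a28, 0.68 for Slc25a5 and 0.39 for Slc25a35. For 3 it was negative, at -1.11 for Slc25a27, -0.98 for Slc25a47 and -0.75 for Slc25a29. The adjusted p of these 15 ran from 0.000463 (Slc25a1) to 0.0486 (Slc25a29), and 30.5% of all genes passed the same test. With 1 library left out, the difference held in 11 of 12 fits for Slc25a47, 7 for Slc25a35, 3 for Slc25a27 and 1 for Slc25a29, and in all 12 for the other 11. Library-size scaling lost those of Slc25a28, Slc25a5, Slc25a51 and Slc25a35. In quadriceps, the effects on Slc25a1 differed by 3.89 (SE 0.711, adjusted p = 0.0384). The cold and warm experiments differed in the supplier of the mice and for many libraries in kit and sequencer, and these cannot be told apart from the temperature. No group of 4 to 10 libraries among the 8 screened had a library far from the rest.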

How the results depend on the processing

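Most member calls kept their direction and their side of the limits. DESeq2 kept 52 calls and lost 2, edgeR's exact test and the fit without a filter kept 54 and lost none, and library-size scaling kept 60 calls and differences and lost 11. Leaving out 1 library at a time kept 435 values past their threshold and lost 99, all with the same sign. The 1 reversal was Slc25a25 in quadriceps at 10 °C, which was -0.19 with all 22 °C libraries of the tissue (0.86 with its own controls). Those controls left 0 calls in quadriceps at 34 °C. Library-size scaling gave 8 calls in quadriceps at 10 °C, 1 in liver at 34 °C and 2 differences between ingSAT and pgVAT, and in iBAT it took Slc25a28 (0.32), Slc25a5 (0.30), Slc25a51 (0.49) and Slc25a35 (0.0018) off the differing members, of which it gave 17. In ileum at 34 °C the exact test gave 2 calls and DESeq2 3. Without the pgVAT libraries 2 members differed between iBAT and ingSAT. Without the 2 epididymis-rich libraries at 10 °C, a setting chosen after seeing the data, pgVAT had 3 calls. The cause of these moves was not tested.

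With 1 library left out, calls at 10 °C ranged from 8 to 10 in iBAT, 12 to 16 in ingSAT, 2 to 9 in pgVAT (9 without 10 °C replicate 2, 2 without 10 °C replicate 3 or 22 °C replicate 3), 2 to 6 in quadriceps (6 without 10 °C replicate 3), 1 to 3 in ileum (1 without 22 °C replicate 1), 3 to 5 in liver, 0 to 2 in spleen (2 without 22 °C replicate 1, 1 without 10 °C replicate 3), and stayed at 0 in bone marrow, spinal cord, brain and hypothalamus. At 34 °C they ranged from 9 to 13 in iBAT, 1 to 4 in quadriceps (1 without 22 °C replicate 2, 34 °C replicate 1 or 34 °C replicate 2), 0 to 4 in ileum (4 without 34 °C replicate 1, 2 without 22 °C replicate 2 or 34 °C replicate 3, 0 without 22 °C replicate 1 or 34 °C replicate 2), 1 to 4 in liver (4 without 34 °C replicate 1, 1 without 34 °C replicate 2) and 0 to 0 in brain. Members that differed ranged from 0 to 1 between iBAT and ingSAT, 0 to 8 between iBAT and pgVAT and 0 to 14 between ingSAT and pgVAT (8 and 14 without pgVAT 10 °C replicate 2), and between the cold and warm effects from 12 to 16 in iBAT, 0 to 3 in quadriceps, 0 to 1 in liver (1 without 22 °C replicate 3 of the cold experiment) and 0 to 0 in ileum and brain.

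Replicate numbers were not taken to pair the samples. In none of the 9 comparisons with such numbers did every pair of libraries correlate above 0.1 (-0.689 to 0.429), though 2 of 3 did in ileum. With few libraries per group, this cannot exclude a pairing. With the replicate number as a block, 1 member was called in spleen and 0 differed between ingSAT and pgVAT, and 33 single calls and differences held and 1 was lost. The block was not run in spinal cord, whose columns do not carry the labels' numbers. Depth was lowest for Slc25a48 and other members near the filter, where few reads limit the precision.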
